A study of Canis lupus familiaris with 15 samples.

Results

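The let-7 family with mir-98 was followed across 15 canine spleens, with 5 libraries from hemangiosarcoma (HSA), 5 from nodular hyperplasia (NH) and 5 from normal spleen (NS). Members were picked by hairpin name, with earlier results of these data known: let-7a, let-7b, let-7c, let-7e, let-7f, let-7g and mir-98. These 7 miRNAs come from 8 annotated hairpins, because let-7a has copies named let-7a-1 and let-7a-2, whose counts were summed. They are 7 of 277 miRNAs named in the tables, and each had mature counts in every library, so all 7 were among the 250 miRNAs tested. Each library was made from small RNA of 1 spleen, and the labels name the 5 spleens of a disease state as biological replicates. The tumor and hyperplasia samples were pieces of splenic masses from client-owned dogs, and the normal spleens came from archived tissue. By the study's methods all were frozen soon after the spleen was removed. Disease state and tissue source therefore cannot be told apart in comparisons with normal spleen. No group was treated, and the labels used here give neither age nor breed. All samples are bulk tissue, in which fewer cells of a type and less RNA per cell cannot be told apart.

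The let-7 miRNAs are among the most conserved small RNAs of animals. Members share the seed, the stretch near the 5' end that pairs with target messages, so they can act on overlapping sets of targets. In mammals these include the messages of the growth regulators RAS, MYC and HMGA2. Their levels rise as cells leave the stem cell state, and the RNA-binding protein LIN28 blocks their maturation. Low let-7 is a known feature of many human tumors. Because several genes give nearly the same mature product, the level of 1 member, the total over members and the mix of members are different quantities, and each is described here.

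HSA libraries held 3040736 to 6562849 mature counts, NH libraries 3768867 to 6073162 and normal spleens 4374133 to 7548062. Levels are given as CPM, counts per 1e6 of a library size scaled by TMM, a factor computed on the assumption that most miRNAs do not differ between libraries. This matters here because mir-143, a smooth muscle miRNA, took 6.78% to 38.0% of mature counts in HSA, 10.4% to 21.3% in NH and 34.4% to 51.5% in NS. The marker lists used next were not checked for being specific to a cell type. The summed CPM of 5 miRNAs listed for lymphocytes, all measured and led by mir-142, was 6200 to 15797 in HSA, against 19173 to 36558 in NH and 17019 to 25531 in NS. That of 3 endothelial miRNAs, all measured and led by mir-126, was 3908 to 18630 in HSA, against 2080 to 4610 in NH and 2746 to 3687 in NS. MiRNAs of striated muscle (4 listed and measured, led by mir-1) summed to 1040 to 5479 CPM in HSA, 696 to 2727 CPM in NH and 5000 to 14460 CPM in NS. One library stood apart from its group: HSA replicate 3 held 3518 CPM of 4 pancreas miRNAs, led by mir-375, whereas each of the other 14 libraries held at most 15.96 CPM. Results that rest on this library are given with and without it.

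Let-7g and let-7f made up most of the family in all 3 groups. Let-7g, which the RefSeq annotation places within the gene WDR82, averaged 17582 ± 2974 CPM in HSA, 21993 ± 1901 CPM in NH and 26272 ± 2488 CPM in NS (SD, n = 5 each). Let-7f, which in human endothelial cells favors the growth of vessels, averaged 13641 ± 1755 CPM in HSA, 18691 ± 1756 CPM in NH and 26401 ± 5368 CPM in NS (SD, n = 5 each). Let-7a came next. It is the member whose mature sequence is the same in worm and mammal, and it averaged 9615 ± 2752 CPM in HSA, 8372 ± 277 CPM in NH and 9638 ± 1190 CPM in NS (SD, n = 5 each). Levels are not divided by length, since mature miRNAs are of similar length. The 4 remaining members were far less abundant, and in no library did one of them exceed let-7a. By level within a library, let-7g took place 5 to 12 among all miRNAs, let-7f place 8 to 13 and let-7a place 12 to 21, whereas let-7e lay between place 50 and place 101.

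**Figure D1:**
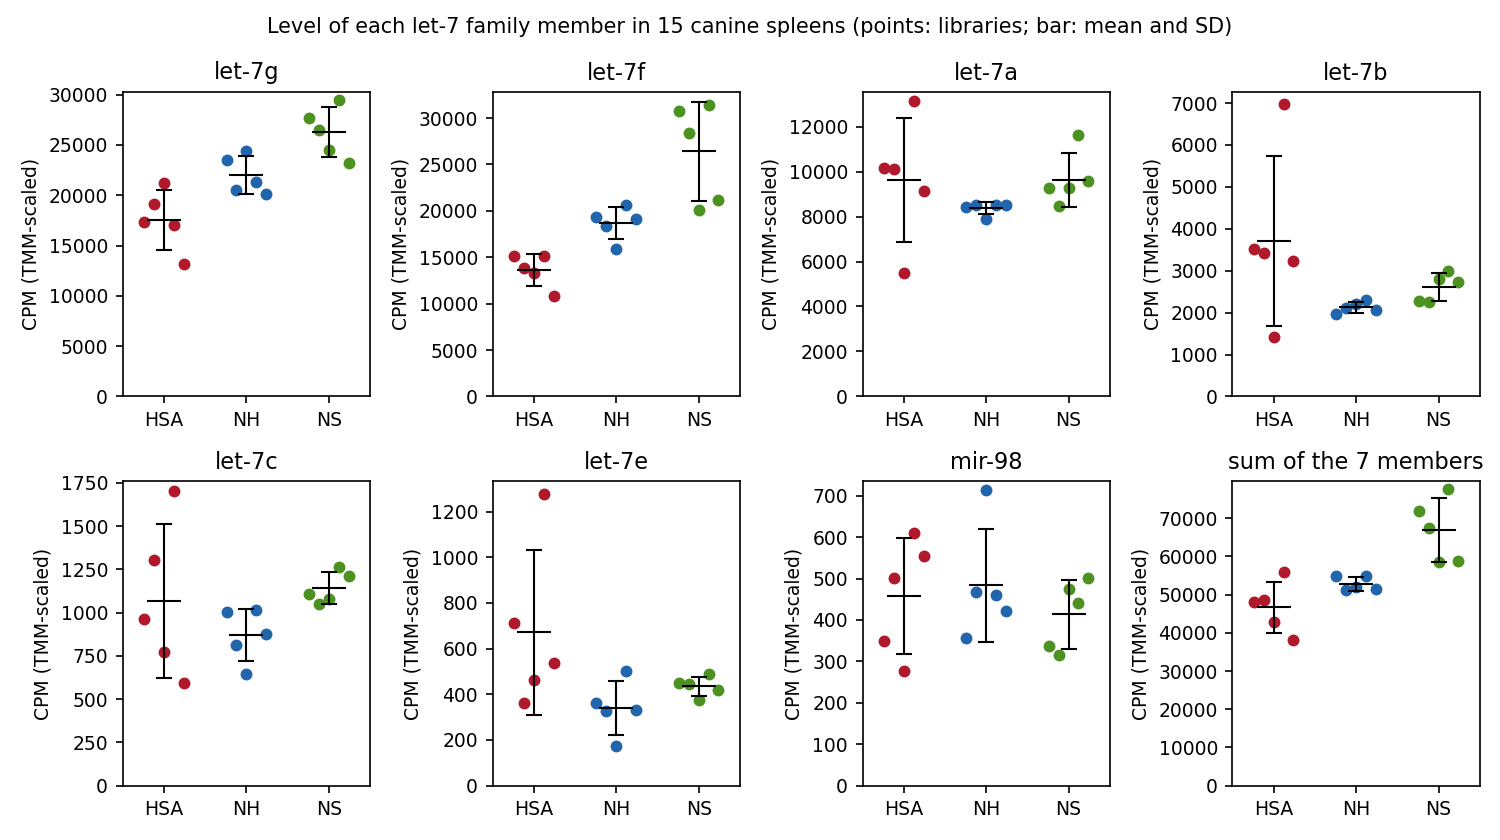
Level of each member and of the sum of all 7, in CPM scaled by TMM (vertical axis, from 0), for 5 hemangiosarcoma (HSA), 5 nodular hyperplasia (NH) and 5 normal spleen (NS) libraries. Points are libraries, and bars give the mean and SD. The hemangiosarcoma points of let-7f (10859 to 15129 CPM) lie below all other libraries, and those of let-7b and let-7e are the most spread relative to their means.

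The order of the members was nearly the same in each group. In HSA, let-7g was above let-7f in 5 of 5 libraries, let-7f above let-7a in 5 of 5, let-7a above let-7b in 5 of 5 and let-7b above let-7c in 5 of 5, although the ranges over libraries of all these neighbors overlapped. In NH, let-7g was above let-7f in 5 of 5 libraries. In NS let-7f and let-7g could not be ranked, as let-7f was the higher one in 3 of 5 libraries. At the low end, let-7e and mir-98 also could not be ranked: let-7e was the higher one in 3 of 5 HSA libraries, in 2 of 5 NH libraries and in 3 of 5 normal spleens.

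All mature counts of the 7 members were given for the 5' arm of their hairpins, and the 3' arms had 0 mature counts over the 15 libraries. Whether a mature product of the 3' arms is annotated was not checked, so these counts do not show which arm was used. The rarest member was still well covered, with at least 860 counts in a library, and the family as a whole had 176312 to 426619 counts per library. Reads of let-7b, let-7c, let-7e, let-7f, let-7g and mir-98 were assigned to that hairpin alone for 89.9% to 99.9% of mature counts, with the lowest shares in let-7e and let-7c. For let-7a, exact mature counts of the copies were equal in 4 libraries and differed by 1 count in the other 11, and 0 of them were unique to a copy. Reads that fit both copies had thus been divided evenly, and the sum counts each read once.

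HSA against NS showed less let-7f and less let-7g relative to the typical miRNA. Let-7f stood at 15124, 13813, 13278, 15129 and 10859 CPM in the 5 HSA libraries, against 30808, 28448, 20113, 31421 and 21214 CPM in the 5 normal spleens. The lowest NS was above the highest tumor. The log2 fold change was -0.95 (SE 0.20, adjusted p = 0.00541, edgeR quasi-likelihood test over 250 miRNAs). Let-7g stood at 17341, 19108, 21242, 17028 and 13189 CPM in HSA, against 27688, 26490, 24552, 29456 and 23173 CPM in NS, again with no overlap. Its log2 fold change was -0.58 (SE 0.19, edgeR adjusted p = 0.0347).

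These were 2 of 7 members called, both lower, in a comparison in which 22.4% of all miRNAs tested were called and 8.8% were called lower. The same 2 members were those whose groups did not overlap downward, a pattern shown by 6% of miRNAs tested. No member showed the same upward, as 6.8% of miRNAs tested did. The remaining 5 members were not called. Their log2 fold changes were -0.0034 for let-7a, 0.51 for let-7b, -0.10 for let-7c, 0.62 for let-7e and 0.15 for mir-98, with edgeR adjusted p-values of 0.201 to 0.998. The median over the 7 members was -0.0034, beside 0.03 over all miRNAs tested. Without HSA replicate 3, let-7b was called as well (log2 fold change 0.88, edgeR adjusted p = 0.0166), and let-7f and let-7g stayed called at -0.80 and -0.51.

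The call of let-7f held when any 1 of the 15 libraries was left out (log2 fold change -1.04 to -0.77). The call of let-7g was lost without any 1 of 9 libraries, namely each NS, NH replicate 3 and HSA replicates 1, 4 and 5, with log2 fold changes of -0.61 to -0.38 over all 15 omissions. It was also lost under 9 of 13 other settings, among them exact reads, no filter on low counts and a fit of the 2 groups alone. Both values also depended on scaling: with plain library totals let-7f was at -0.30 (edgeR adjusted p = 0.479) and let-7g at 0.02 (edgeR adjusted p = 0.974), while let-7e was called (1.32, edgeR adjusted p = 0.0418) and the median of all miRNAs moved to 0.63. Set against that median, let-7f lay at -0.98 to -0.93 and let-7g at -0.64 to -0.60 under the 6 scalings tried. A scaling shifts all miRNAs nearly alike, so these values are nearly fixed by construction and do not bear on the calls.

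**Figure D2:**
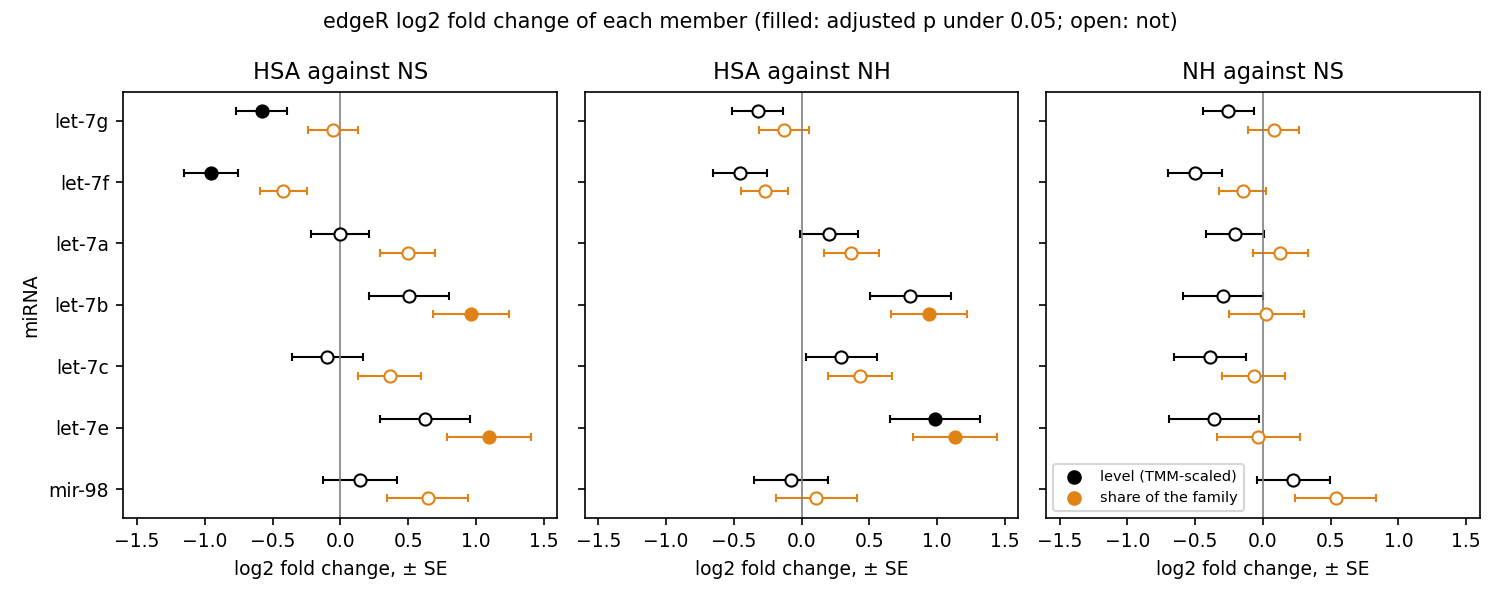
The edgeR log2 fold change of each member, with its SE, for hemangiosarcoma (HSA) against normal spleen (NS), HSA against nodular hyperplasia (NH), and NH against NS. Black marks are levels scaled by TMM, orange marks are shares of the family, and filled marks have an adjusted p under 0.05. Filled black marks are let-7f (-0.95) and let-7g (-0.58) in the first panel and let-7e (0.98) in the second, and filled orange marks are let-7b and let-7e in both.

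The mix of members was compared through the share of each in the family total, which needs no scaling between libraries. Shares are tied together: where let-7f and let-7g are lower, the shares of other members rise even at unchanged levels. In HSA against NS the family total had a log2 ratio of -0.52 on the TMM scale. As levels, let-7e (log2 fold change 0.62) and let-7b (0.51) were not called there. Let-7e, which is transcribed with mir-99b and mir-125a in a cluster active in mouse blood stem cells, made up 1.48%, 0.75%, 1.07%, 2.29% and 1.41% of the family in HSA, against 0.63%, 0.66%, 0.64%, 0.63% and 0.72% in NS. Every tumor was above every NS. The log2 fold change of its share was 1.10 (SE 0.31, edgeR adjusted p = 0.0163). This call held without any 1 library (0.85 to 1.26), and was 1.18 without HSA replicate 3.

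Let-7b, known in mouse for holding back the division of neural stem cells, made up 7.30%, 7.01%, 3.29%, 12.5% and 8.50% of the family in HSA, against 3.16%, 3.35%, 4.78%, 3.85% and 4.65% in NS. The groups overlapped through a single tumor, HSA replicate 3. The log2 fold change of its share was 0.96 (SE 0.28, edgeR adjusted p = 0.0183). It was 1.16 without that tumor (edgeR adjusted p = 0.00155), and the call was lost without NS replicate 1 or replicate 2, with log2 fold changes of 0.72 to 1.16 over the 15 omissions.

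Let-7a made up 21.1%, 20.8%, 12.8%, 23.5% and 24.0% of the family in HSA, against 12.9%, 12.6%, 15.8%, 14.98% and 16.3% in NS. All tumors but replicate 3 were above every NS. The log2 fold change of its share was 0.50 (SE 0.20, edgeR adjusted p = 0.0816), and 0.63 without HSA replicate 3, when it was called (edgeR adjusted p = 0.0135). Let-7f made up 31.4%, 28.4%, 30.9%, 27.1% and 28.5% of the family in HSA, against 42.8%, 42.2%, 34.3%, 40.4% and 36.1% in NS. The groups did not overlap, yet the log2 fold change of -0.42 was not called (SE 0.17, edgeR adjusted p = 0.0827). The let-7g share stood at -0.05 on the same scale (SE 0.19, edgeR adjusted p = 0.858), and those of let-7c and mir-98, at 0.36 and 0.64, were not called either.

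In all, the shares of 2 of 7 members were called higher in HSA than in NS and 0 were called lower by edgeR, the only tool run on shares. At an unadjusted p under 0.05, 4 members were higher (let-7a, let-7b, let-7e and mir-98) and 1, let-7f, was lower. The share of all miRNAs passing that unadjusted threshold is not given here. On this scale the median log2 fold change was 0.50 over the 7 members, beside 0.57 over all 250 miRNAs tested. The values of let-7a (0.50) and mir-98 (0.64) thus lay near that of a typical miRNA. Set against the same family total, 26% of all miRNAs tested were called, with 25.2% called higher and 0.8% lower, so a call of this kind was not rare among other miRNAs. Nonoverlapping groups with the tumors higher, as for let-7e, occurred in 14% of miRNAs tested, and with the tumors lower, as for let-7f, in 2%. Let-7f and let-7g together made up 67.4%, 67.7%, 80.4%, 57.5% and 63.1% of the family in HSA, against 81.3%, 81.4%, 76.2%, 78.3% and 75.5% in NS. The 4 tumors other than replicate 3 were below all normal spleens.

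**Figure D3:**
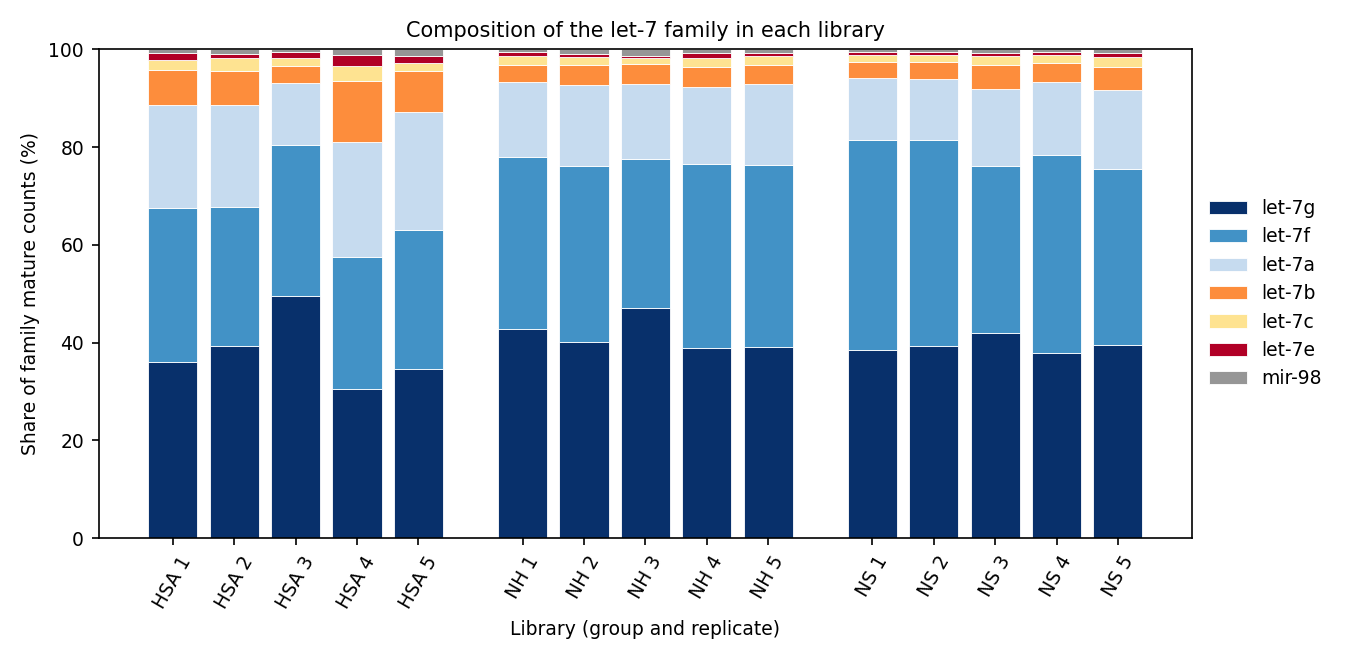
Share of each member in the mature counts of the family (vertical axis, percent) for each of the 15 libraries, grouped as hemangiosarcoma (HSA), nodular hyperplasia (NH) and normal spleen (NS). The let-7g and let-7f segments together span 57.5% to 80.4% in HSA, 76.1% to 78.0% in NH and 75.5% to 81.4% in NS, and HSA 3 has the widest let-7g segment (49.5%).

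The ratio of let-7f to let-7a can be taken from counts alone. Neither share was called by edgeR in HSA against NS, and this ratio was given no test. It was 1.49, 1.36, 2.41, 1.15 and 1.19 in HSA, 2.30, 2.16, 2.02, 2.42 and 2.25 in NH, and 3.33, 3.36, 2.17, 2.70 and 2.22 in NS. Tumors other than replicate 3 lay below every library of the other groups. By contrast, the ratio of let-7f to let-7g overlapped among all groups, with 0.63 to 0.89 in HSA, 0.65 to 0.97 in NH and 0.82 to 1.11 in NS.

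HSA against NH differed in let-7e. It stood at 714, 364, 461, 1277 and 538 CPM in HSA, against 360, 328, 173, 503 and 332 CPM in NH. Tumor replicates 2 and 3 lay within the hyperplasia range, and replicate 4 was the highest. The log2 fold change was 0.98 (SE 0.33, edgeR adjusted p = 0.0491). It was the only one of the 7 members called, where 18.4% of all miRNAs tested were called and 10.4% were called higher. The p-value was close to the threshold, and the call was lost without any 1 of 9 libraries (NS replicates 1 to 4, NH replicates 1, 2 and 5, HSA replicates 1 and 4) and under 5 of 13 other settings, limma voom among them. Leaving out HSA replicate 4 gave 0.61 (edgeR adjusted p = 0.164), and the range over 15 omissions was 0.61 to 1.24.

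Let-7b stood at 3514, 3411, 1414, 6986 and 3240 CPM in HSA, against 1972, 2102, 2212, 2305 and 2053 CPM in NH. All tumors but replicate 3 were above the hyperplasia libraries. Its log2 fold change of 0.80 was not called (SE 0.30, edgeR adjusted p = 0.0647), whereas it was 1.16 and called without HSA replicate 3 (edgeR adjusted p = 0.00282). It was also called without NH replicate 3 and under 5 of 13 other settings, namely TMM without the members, DESeq2, filterByExpr, all hairpin reads and exact reads. Let-7f, at 19329, 18416, 15899, 20650 and 19158 CPM in NH, was above all tumors. This nonoverlap, with the tumors lower, was shown by 4.4% of miRNAs tested, and the reverse by 3.6% of them and by no member, but the log2 fold change of -0.45 was not called (SE 0.20, edgeR adjusted p = 0.117).

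The log2 fold changes of the other members were 0.20 for let-7a, 0.29 for let-7c, -0.32 for let-7g and -0.08 for mir-98, and none was called. The median over the 7 members was 0.20, beside -0.07 over all miRNAs tested.

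As shares of the family, let-7b and let-7e were higher in HSA than in NH. Let-7e made up 0.66%, 0.64%, 0.33%, 0.92% and 0.65% of the family in NH, and the log2 fold change of its share in HSA was 1.13 (SE 0.31, edgeR adjusted p = 0.0196). Let-7b made up 3.59%, 4.10%, 4.25%, 4.21% and 3.99% in NH, and its log2 fold change was 0.94 (SE 0.28, edgeR adjusted p = 0.0294). These were 2 of 7 members called, beside 18% of all miRNAs tested, with 14% called higher and 4% lower. No member was without overlap between these groups, beside 5.6% of miRNAs tested with the tumors higher and 2.8% with the tumors lower. Without HSA replicate 4, the highest in both, neither was called (let-7e at 0.88 with an edgeR adjusted p of 0.0511, let-7b at 0.70 with 0.0735). Without HSA replicate 3, both were called (1.21 and 1.13), and let-7a was too (0.50, edgeR adjusted p = 0.0456). The call of let-7b was lost as well without NH replicate 1, 2 or 5 or HSA replicate 5, and in a fit of these 2 groups alone neither share was called.

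NH against NS gave no call among the 7 members, where 12.4% of all miRNAs tested were called, 5.6% higher and 6.8% lower. At an unadjusted p under 0.05, for which no share over all miRNAs is given, 1 member passed, let-7f (log2 fold change -0.50, SE 0.20, edgeR adjusted p = 0.0962). DESeq2 called it at -0.54 (adjusted p = 0.0493), and limma voom called 0 of the 7. Let-7f reached 20113 CPM in the lowest NS, and NH replicate 4, at 20650 CPM, was the sole hyperplasia library above that value.

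Let-7c, which lies beside mir-99a and mir-125b and is known for slowing growth of human prostate cancer cells, was the only member whose groups did not overlap here. It stood at 1001, 814, 645, 1017 and 875 CPM in NH, against 1105, 1048, 1076, 1262 and 1212 CPM in NS. Such nonoverlap, with hyperplasia lower, was shown by 9.2% of miRNAs tested and the reverse by 6.4%, and the log2 fold change of -0.39 was not called (SE 0.26, edgeR adjusted p = 0.342). Of the 7 members, 6 had a log2 fold change below 0, and mir-98 stood at 0.22. The median over members was -0.30, beside 0.23 over all miRNAs tested, so the members lay further below the typical miRNA than below 0. With plain library totals all 7 were above 0, and the median of all miRNAs then stood at 0.81.

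None of the 7 shares within the family was called in this comparison by edgeR, with log2 fold changes of -0.15 to 0.13 for 6 members and 0.54 for mir-98 (SE 0.30, edgeR adjusted p = 0.209). In the same comparison 18.4% of all miRNAs tested were called against the family total, 13.6% higher and 4.8% lower. The groups overlapped in the share of each member, beside 11.2% of miRNAs tested with hyperplasia higher and 5.6% with hyperplasia lower and no overlap. At an unadjusted p under 0.05, 0 of the 7 shares passed. The median log2 fold change on this scale was 0.03 over the members, beside 0.55 over all miRNAs tested.

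The 3 comparisons share libraries, so their values for a member are not independent. Side by side, let-7f had -0.95 for HSA against NS, -0.45 for HSA against NH and -0.50 for NH against NS. Let-7e had 0.62, 0.98 and -0.36 in that order of comparisons, and let-7b had 0.51, 0.80 and -0.30. Mir-98, which lies within HUWE1 and in mouse macrophages represses interleukin 10, had 0.15, -0.08 and 0.22 and was called in no comparison.

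The total of the family, given as a description with no test, was 48151, 48636, 42944, 55893 and 38104 CPM in HSA, 54959, 51235, 51975, 54774 and 51447 CPM in NH, and 71918, 67480, 58647, 77704 and 58816 CPM in NS. On this scale every tumor and every hyperplasia library was below every NS, which did not hold for plain percentages of counts, and tumor and hyperplasia libraries overlapped. The ratio of group means was 0.699 for HSA against NS, 0.884 for HSA against NH and 0.790 for NH against NS. The spread within NH was the smallest of the groups, with an SD of 1836 CPM on a mean of 52878 CPM.

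As a plain percentage of mature counts, the picture was different. The family took up 3.65%, 6.46%, 3.67%, 8.82% and 5.32% in HSA, 5.79%, 8.32%, 6.84%, 4.25% and 6.48% in NH, and 3.55%, 4.32%, 5.65%, 5.80% and 6.20% in NS. All groups overlapped on this scale. The smooth muscle miRNAs mir-143 and mir-145 make up a varying part of the counts by which this percentage is taken, and their part in it was not tested.

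**Figure D4:**
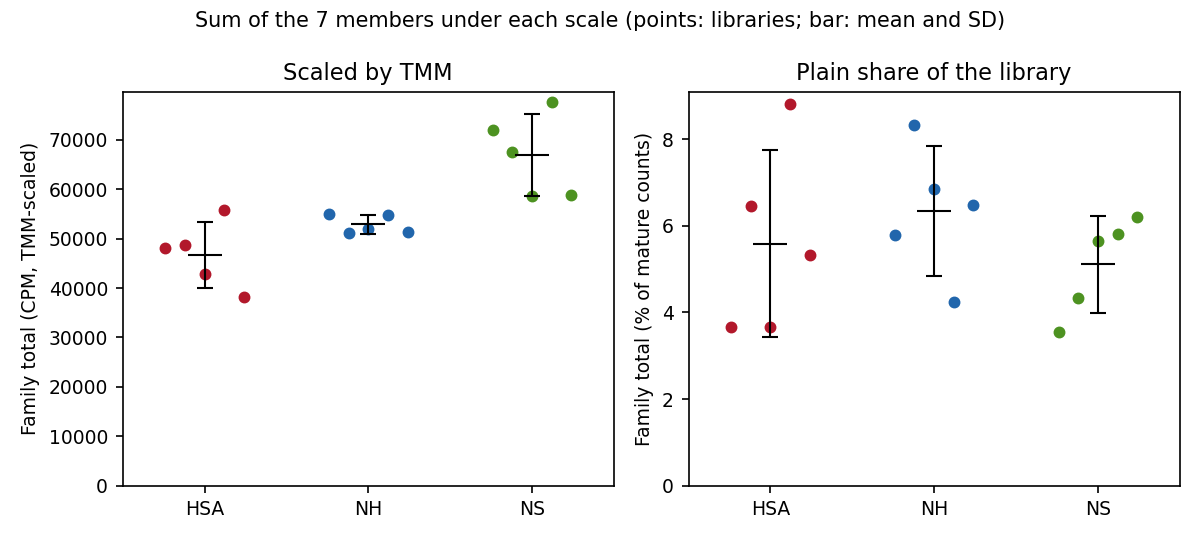
Sum of the 7 members in each library, as CPM scaled by TMM (left) and as a percentage of all mature counts (right), for hemangiosarcoma (HSA), nodular hyperplasia (NH) and normal spleen (NS). Points are libraries, and bars give the mean and SD. On the left all NS points (58647 to 77704 CPM) lie above all others, and on the right the groups overlap, with NS at 3.55% to 6.20%.

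HSA replicate 3 differed from the other tumors in the mix of members. It had the lowest let-7a (5500 CPM) and let-7b (1414 CPM) of all 15 libraries and the highest share of let-7g (49.5%). It also had the highest endothelial sum (18630 CPM) and the lowest lymphocyte sum (6200 CPM). HSA replicate 4 lay at the opposite end, with the highest let-7a (13159 CPM), let-7b (6986 CPM), let-7c (1703 CPM) and let-7e (1277 CPM) and the lowest share of let-7g (30.5%). Its endothelial sum was 11372 CPM and its lymphocyte sum 7845 CPM. The tumors thus varied more than either other group in let-7a, let-7b, let-7c and let-7e. Whether cell types had a part in any let-7 difference was not tested.

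The deposited tables also divide mature reads into exact ones and all others, which gives another readout than the level. What is counted as exact is not described in the sources used here. Whether the exact share of a member depends on the levels of its relatives was not tested. The share of exact reads was higher in the tumors than in one or both of the other groups for several members. For mir-98 exact reads were 53.7%, 55.2%, 53.0%, 59.3% and 57.8% in HSA, 48.7%, 48.0%, 48.5%, 46.1% and 48.6% in NH, and 48.7%, 50.9%, 46.9%, 46.3% and 50.1% in NS. Every tumor was above every other library. For let-7f they were 55.3% to 61.8% in HSA, 50.5% to 53.3% in NH and 52.7% to 56.4% in NS.

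Tumors were above hyperplasia with no overlap in let-7c, let-7e, let-7f and mir-98, 4 of the 7 members. The same was true of 5.79% of the 121 miRNAs with at least 100 counts in every library, which is 7 miRNAs in all including these 4, and 0.826% were below. Against NS, tumors were above with no overlap in 1 member, mir-98, beside 4.13% of the 121, with 3.31% below. In NH against NS, let-7a was lower with no overlap (44.7% to 46.6% against 47.6% to 50.5%), beside 16.5% of the 121. In the same comparison 5.79% of the 121 were higher, and these shares were given no test.

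Let-7g was the member with the fewest exact reads and went the other way in part. Exact reads were 33.4%, 33.8%, 28.1%, 17.4% and 25.9% of its mature counts in HSA, 33.0%, 34.1%, 26.3%, 30.3% and 36.4% in NH, and 28.2%, 27.7%, 30.7%, 29.8% and 29.8% in NS. HSA replicate 4 was the lowest library. Counting exact reads only, the let-7f call in HSA against NS held (log2 fold change -0.75, edgeR adjusted p = 0.0272), and the let-7g call did not (-0.55, edgeR adjusted p = 0.116).

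**Figure D5:**
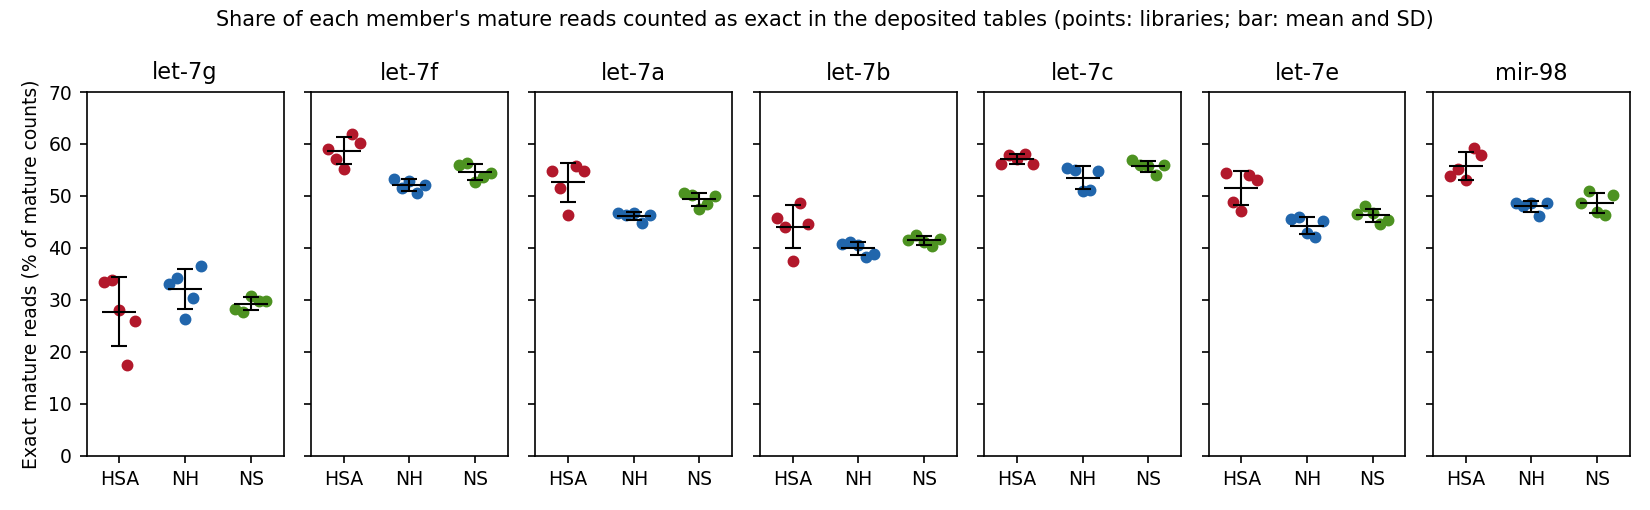
Percentage of the mature counts of each member that the deposited tables count as exact (vertical axis, from 0), for hemangiosarcoma (HSA), nodular hyperplasia (NH) and normal spleen (NS). Points are libraries, and bars give the mean and SD. The mir-98 points of HSA (53.0% to 59.3%) lie above those of NH and NS, and let-7g has the lowest percentages (17.4% to 36.4%).

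Reads elsewhere on the hairpin were few and did not separate the groups. They made up 0.93% to 2.97% of hairpin reads for let-7g, 2.58% to 5.15% for let-7f and 3.90% to 8.53% for let-7a, and up to 11.2% for let-7c. None of the 7 members had nonoverlapping groups in this share in any comparison, although some of the 121 miRNAs did. These were 3.31% with the tumors higher than NS and 1.65% lower, 0% with the tumors higher than hyperplasia and 0.826% lower, and 9.09% with hyperplasia higher than NS and 2.48% lower. These reads can be divided between the copies of let-7a, which differ outside the mature sequence. Let-7a-1, next to let-7b in RefSeq, held 71.5%, 68.6%, 76.5%, 70.1% and 77.1% of them in HSA, 73.7%, 72.4%, 72.2%, 69.6% and 72.7% in NH, and 64.2%, 65.8%, 67.3%, 67.2% and 67.7% in NS. Both kinds of lesion were above all normal spleens, but no background over other miRNAs with copies was taken. This share is a description of by-product reads, and mature reads cannot be divided in this way.

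The members lie in several gene clusters, so their neighbors were compared as well. In RefSeq, let-7e lies with mir-99b and mir-125a, let-7c with mir-99a and mir-125b, let-7a-2 with further copies of the same pair, let-7a-1 with let-7b, and let-7f with let-7d. Mir-125a, the mammalian counterpart of worm lin-4, stood at 2167, 1945, 2173, 2195 and 1928 CPM in HSA, 1728, 1492, 893, 1371 and 1696 CPM in NH, and 1337, 1090, 1268, 1266 and 1201 CPM in NS. Every tumor was above every other library. Its log2 fold change in HSA was 0.76 against NS (SE 0.20, edgeR adjusted p = 0.0145) and 0.54 against NH (SE 0.20, edgeR adjusted p = 0.0659). Of all miRNAs tested, 6.8% had the tumors higher with no overlap against NS and 3.6% against NH, and 13.6% were called higher against NS.

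Mir-99b, the third member of that cluster, was called in no comparison, with log2 fold changes of 0.50, 0.86 and -0.35 in the order of comparisons used above. Mir-99a (-0.43, 0.13 and -0.56) and mir-125b (-0.11, 0.01 and -0.12) were not called either. Let-7e did not keep a fixed ratio to its neighbors. Let-7e per mir-99b was 0.088 to 0.71 in HSA, 0.20 to 0.36 in NH and 0.16 to 0.40 in NS. The ratio of let-7e to mir-125a was 0.19 to 0.58 in HSA, 0.19 to 0.37 in NH and 0.30 to 0.41 in NS. Copies of mir-99a were summed by name, and RefSeq has a copy beside let-7a-2 as well as beside let-7c. The ratio of let-7c to mir-99a can therefore mix loci and does not show whether neighbors move together. It was 0.030 to 0.17 in HSA, 0.040 to 0.071 in NH and 0.045 to 0.055 in NS. In each of these ratios the tumors spread the most, with the highest value in HSA replicate 4. The other tumors stood at 0.088 to 0.39 for let-7e per mir-99b and 0.030 to 0.063 for let-7c per mir-99a. For let-7e per mir-125a they stood at 0.19 to 0.33, a narrower range than in NH.

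Across the 15 libraries, the SD of the log2 ratio of a miRNA to the family total measures how closely it follows the family. Among members it was 0.17 for let-7g, 0.21 for let-7f, 0.30 for let-7a, 0.32 for let-7c, 0.49 for mir-98, 0.58 for let-7b and 0.67 for let-7e. The abundant members follow the total in part because they make it up. Of 114 other miRNAs with at least 100 counts in every library, the most alike were mir-92a (0.32), mir-361 (0.34), mir-103 (0.34), mir-181b (0.36) and mir-30c (0.36), and the median was 0.64. These 5 were picked for the smallest SD, so a comparison of members with them is not informative. Set against the median of the 114, let-7b and mir-98 followed the total more closely, and let-7e slightly less closely. None of the 5 was called in any of the 3 comparisons (edgeR adjusted p-values of 0.072 to 0.952).

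Of other miRNAs looked up by name as related to let-7, let-7j and mir-202 had almost no mature counts. Their seeds were not checked. Let-7j was listed with 0 mature counts, and mir-202, known from the ovary and testis, had 18 counts over all libraries, with at most 4 in a library. Let-7d, let-7i and let-7k were not analysed here.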

How the data were processed

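Small RNA of 15 canine spleens was sequenced by the authors, checked with FastQC, trimmed, filtered and counted in CLCbio against canine hairpins of miRBase release 20. In their processing notes the submitters give canFam3 as the build, and for FastQC and CLCbio no version is given in the sources used here. Deposited were raw counts of each hairpin, divided into mature reads of either arm, exact mature reads and reads elsewhere on the hairpin, with no normalization. A column of expression values equals the mature 5' count and was not used alone.

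For each miRNA the mature counts of the arms and of numbered copies were summed by name. Of 277 miRNAs, the 250 that reached 10 counts in all libraries together entered the quasi-likelihood test of edgeR 4.0.16 (R 4.3.3), with TMM factors and group means. The 3 groups share 1 estimate of the spread, and the Benjamini-Hochberg adjustment was made per comparison, with calls at an adjusted p under 0.05. A second fit of all 250 miRNAs used the family total of each library as its size, so that the log2 fold change of a member is that of its share. Alternatives covered other scalings, filters and reads, DESeq2 1.42.0, limma 3.58.1 (voom), a replicate block and leaving out each library. The edgeR step was tested on simulated data. Python 3.11.15, numpy 2.4.6, pandas 2.3.3 and matplotlib 3.10.9 were used for summaries and figures.

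Groups were taken from the disease state in the labels. Same-numbered libraries of different groups did not deviate together (correlations of -0.33 to 0.32 over 15 pairs, 5 of them over 0.1), so no pairing was used. Libraries of a group all differed beyond sampling noise (30 pairs, chi-square over its degrees of freedom at least 746). The precision of a value is set by the depth of its library, at least 860 counts for a member, and mostly by the spread between spleens. PCR reads without molecular identifiers are not independent molecules. Closely related members may exchange reads that carry sequencing errors.

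The members, the marker lists and the neighbors were chosen with earlier results of these data known. Named miRNAs are the 7 members, their neighbors, other miRNAs looked up by name as related to let-7, and the most abundant miRNA of a marker list. Also named are the 5 miRNAs whose log2 ratio to the family total (0.5 added to counts) had the smallest SD. Neighbors are miRNA genes within 50 kb in the RefSeq table of a later dog assembly, used for names and neighborhood only.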

Additional observations from a re-analysis of the deposited data

Results flagged for a closer look

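A sample far from the 4 others of its group was found in 8 of 105 groups of 5 values, and chance alone gives about 1 in 20. Hemangiosarcoma replicate 3 accounts for a pair of these: its let-7a share of the family was 12.8%, against 20.8% to 24.0% in the other tumors, and its ratio of let-7f to let-7a was 2.41, against 1.15 to 1.49. The let-7a level of nodular hyperplasia replicate 3 was 7884 CPM, against 8412 to 8534 CPM in the other 4 hyperplasia libraries, a gap that is large only beside their narrow spread. The share of reads elsewhere on the let-7g hairpin was also lowest in that library, at 1.41%, against 2.19% to 2.46%.

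Nodular hyperplasia replicate 4 had the lowest exact share of its group for let-7a (44.7%, against 46.3% to 46.6%) and for mir-98 (46.1%, against 48.0% to 48.7%). Its ratio of let-7e to mir-125a was 0.367, against 0.194 to 0.220 in the other hyperplasia libraries. In hemangiosarcoma replicate 4 the ratio of let-7c to mir-99a was 0.171, against 0.0301 to 0.0631 in the other tumors. The causes of these differences were not tested.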

How the results depend on the processing

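Of the 7 calls of a member as a level or share, those of let-7f as a level and let-7e as a share, both in hemangiosarcoma against normal spleen, held without any 1 library. The number of members called in hemangiosarcoma against normal spleen was 2, and it was 1 with library totals (let-7e), 0 with unscaled counts, 0 with library totals without mir-143, and 1 without a filter, with filterByExpr, with all hairpin reads, with exact reads and with only the 2 groups in the fit. In hemangiosarcoma against nodular hyperplasia it was 1, and it was 0 with DESeq2 size factors, library totals, unscaled counts, limma voom or 2 groups only, and 2 with TMM without the members, DESeq2, filterByExpr, all hairpin reads or exact reads. In nodular hyperplasia against normal spleen it was 0, and 1 with DESeq2. The number of shares called in hemangiosarcoma against nodular hyperplasia was 2, and 0 with 2 groups only.

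Over all miRNAs, hemangiosarcoma against normal spleen gave 56 calls (34 higher and 22 lower), against 24 with unscaled counts (23 and 1), 46 higher and 1 lower with library totals, and 34 higher and 5 lower with library totals without mir-143. Hemangiosarcoma against nodular hyperplasia gave 46 calls (26 higher and 20 lower), against 22 with library totals, 22 with 2 groups only, and 24 higher and 11 lower with library totals without mir-143. With DESeq2 size factors 24 were higher and 22 lower. With unscaled counts these were 16 and 18, and with TMM without the members 31 and 17. For limma voom, DESeq2, filterByExpr, all hairpin reads and exact reads they are not given for this comparison. Nodular hyperplasia against normal spleen gave 31 calls (14 higher and 17 lower), against 51 with library totals (45 and 6), 16 with unscaled counts (11 and 5), 52 with DESeq2, 56 with 2 groups only, and 15 higher and 11 lower with library totals without mir-143.

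The log2 ratio of the family total in hemangiosarcoma against normal spleen was -0.52, and it turned to 0.13 with library totals and was -0.20 without mir-143 in them. In nodular hyperplasia against normal spleen it was -0.34, and it turned to 0.31 with library totals and was -0.068 with unscaled counts, -0.43 with TMM without the members and -0.21 with library totals without mir-143. The level of let-7g in hemangiosarcoma against normal spleen turned to 0.018 with library totals. Mir-143 alone took up to 51.5% of a library total, and the cause of the changes was not tested.

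Leaving out 1 library gave 36 to 61 calls over all miRNAs, 1 to 3 members, 1 to 3 shares and a family ratio of -0.59 to -0.34 in hemangiosarcoma against normal spleen. It gave 26 to 60 calls, 0 to 2 members, 0 to 3 shares and a family ratio of -0.25 to 0.0019 in hemangiosarcoma against nodular hyperplasia. It gave 4 to 46 calls, 0 members, 0 shares and a family ratio of -0.38 to -0.28 in nodular hyperplasia against normal spleen, with the 4 calls found without normal spleen replicate 2.

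The replicate number as a block, which does not mark a pairing here, gave 1 member called in hemangiosarcoma against normal spleen, and 29 calls over all miRNAs and 1 share (let-7e) in hemangiosarcoma against nodular hyperplasia.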
